A study of Mus musculus with 6 samples.

Results

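Tnf, Il6, Il12a, Il12b, Il23a, Il27, Il10, Lif and Osm, which encode cytokines or cytokine subunits, and Acod1, which encodes the itaconate-producing enzyme of macrophages, were examined as a group of genes that LPS induces in macrophages. The members were chosen by symbol, and all 10 of 10 were found among the 23935 symbols of the deposited count and TPM tables. The tables hold RNA-seq values of bone marrow-derived macrophages (BMDMs) from 3 PKM2FL/FL and 3 PKM2ΔMAC mice, with 1 library per mouse. The floxed Pkm allele was present in both genotypes, and PKM2ΔMAC mice in addition carried LysM-Cre, a recombinase placed in the Lyz2 locus, which is active in neutrophils and other myeloid cells besides macrophages. Cells of both genotypes were grown from bone marrow in M-CSF for 7 days, and the labels put all 6 libraries under a 16 h priming with LPS (10 ng/mL) plus IFN-γ (25 ng/mL). No unprimed library was analysed here, so the comparison is between genotypes and the rise of a gene upon priming could not be measured. The sources used here do not give the age of the mice whose marrow was used for sequencing.

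LPS is recognised by TLR4 together with MD-2 (Ly96) and CD14, and signals through MyD88 and TRIF to NF-κB, AP-1 and interferon regulatory factors. In macrophages this response starts transcription of TNF-α and IL-6, of the subunits of the IL-12 family, and of IL-10, which restrains the response. IFN-γ is known to raise IL-12 production and inducible nitric oxide synthase (Nos2) in LPS-stimulated macrophages. Acod1 converts cis-aconitate, an intermediate of the TCA cycle, to itaconate, which inhibits succinate dehydrogenase.

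Total counts were between 49957449 and 54524651 per library, at which 3 counts, taken as the detection limit for counting error, correspond to between 0.0550 and 0.0601 CPM (counts scaled to library size, per 1e6). Pkm, the targeted gene, averaged 1068 ± 125 CPM in PKM2ΔMAC against 1705 ± 8.07 CPM in PKM2FL/FL (SD, n = 3 each), without overlap (log2 fold change -0.68, edgeR adjusted p = 0.00913). In PKM2ΔMAC replicates 1 to 3 it had 987, 1212 and 1005 CPM, so that Pkm was highest in replicate 2 of this genotype. Pkm encodes both PKM1 and PKM2, and counts per gene symbol do not tell them apart. The loss of PKM2 itself was therefore not measured here. PKM2ΔMAC replicate 2 stood apart. Pairs of libraries of the same genotype that included it differed by a chi-square per degree of freedom of 43.1 and 53.8, against 7.55 to 13.7 for the other pairs. Macrophage genes were abundant, with Cd68 at a mean of 2610 TPM (a depth-scaled unit corrected for gene length), Adgre1 (F4/80) at 2063 TPM and Csf1r at 2038 TPM over the 6 libraries. In such bulk samples, fewer cells of a type and less RNA per cell cannot be told apart.

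The sequence upstream of the transcription start is shown for 4 members of different levels, namely Tnf (the highest), Acod1 (intermediate), Il6 and Il12b (near the detection limit). RefSeq promoters on GRCm38.p6, the patch release of the mm10 build named in the submitters' processing notes, were at hand for 6 of the 10 members, and the 250 bases before the start are given. Capitals mark matches to the TATA box (TATAAA), the AP-1 motif (TGANTCA) or the NF-κB consensus motif, searched on both strands, with no overlap between matches.
Tnf, chr17:35202008-35202257, minus strand: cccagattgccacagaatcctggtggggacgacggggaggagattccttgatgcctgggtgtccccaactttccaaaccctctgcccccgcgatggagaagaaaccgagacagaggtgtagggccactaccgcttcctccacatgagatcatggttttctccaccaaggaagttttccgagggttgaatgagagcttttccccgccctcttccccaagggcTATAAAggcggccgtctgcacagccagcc
Acod1, chr14:103046762-103047011, plus strand: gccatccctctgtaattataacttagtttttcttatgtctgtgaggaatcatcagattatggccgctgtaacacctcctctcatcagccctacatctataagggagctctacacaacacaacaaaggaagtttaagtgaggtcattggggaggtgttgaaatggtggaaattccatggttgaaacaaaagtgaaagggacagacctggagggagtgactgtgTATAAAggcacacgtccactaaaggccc
Il6, chr5:30012864-30013113, plus strand: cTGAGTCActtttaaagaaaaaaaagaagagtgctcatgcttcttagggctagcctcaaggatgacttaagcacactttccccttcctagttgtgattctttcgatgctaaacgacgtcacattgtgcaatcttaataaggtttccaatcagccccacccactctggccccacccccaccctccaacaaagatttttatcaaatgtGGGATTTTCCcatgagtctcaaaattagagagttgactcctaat
Il12b, chr11:44399813-44400062, plus strand: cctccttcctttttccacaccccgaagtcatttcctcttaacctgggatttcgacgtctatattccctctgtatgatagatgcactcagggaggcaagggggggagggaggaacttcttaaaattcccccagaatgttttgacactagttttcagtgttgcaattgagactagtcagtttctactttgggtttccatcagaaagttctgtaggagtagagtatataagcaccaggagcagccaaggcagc

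Tnf held a TATA box from base -29 to -24 and Acod1 from base -28 to -23, counted back from the RefSeq start. The RefSeq start of Acod1 lies 35 bases after the first base of the gene in GENCODE M21, the annotation used for gene positions below, so this match is inside the GENCODE gene. That of Lif lies 11 bases after, and for Tnf, Il6 and Il12b the starts coincide. Il6 held an NF-κB match, GGGATTTTCC, from base -44 to -35 and an AP-1 match from base -249 to -243. Lif, whose window is not printed, held an AP-1 match from base -228 to -222. The windows of Il12a and Il12b held none of the 3 motifs by these letters. Among 32851 RefSeq windows of 250 bases, 12.4% held the TATA box, 6.75% the AP-1 motif and 3.90% the NF-κB motif. These matches describe letters and not binding, which was not measured here.

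Transcript levels differed widely among the members, and 4 of 10 were below 1 TPM on average. Of the 60 values of 10 members in 6 libraries, 12 were at or under 3 counts and 4 were at 0. Tnf was the highest member, with a mean of 28.4 TPM over the 6 libraries, rank 5435 of 23935 symbols. Il10, the anti-inflammatory cytokine, followed with 12.1 TPM, and Osm, which encodes oncostatin M of the IL-6 family, with 8.07 TPM. Acod1 was at 4.30 TPM, Il27 at 2.70 TPM and Lif, another cytokine of the IL-6 family, at 2.47 TPM. The other 4 members lay below 1 TPM, at 0.326 for Il6, 0.322 for Il12a, 0.104 for Il12b and 0.0305 for Il23a, whereas 14582 symbols had a mean of at least 1 TPM. The mean of Tnf was 87.3 times that of Il6 on the TPM scale.

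In the order of levels, every value of Tnf lay above every value of Il10, and every value of Lif above every value of Il6. The ranges of all other neighbours overlapped. Within each of the 6 libraries Il10 nevertheless exceeded Osm and Osm exceeded Acod1, while Acod1 exceeded Il27 in 5 and Il27 exceeded Lif in 4. Il6 exceeded Il12a in 3 of 6 libraries, so that these neighbours had no constant order.

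**Figure D1:**
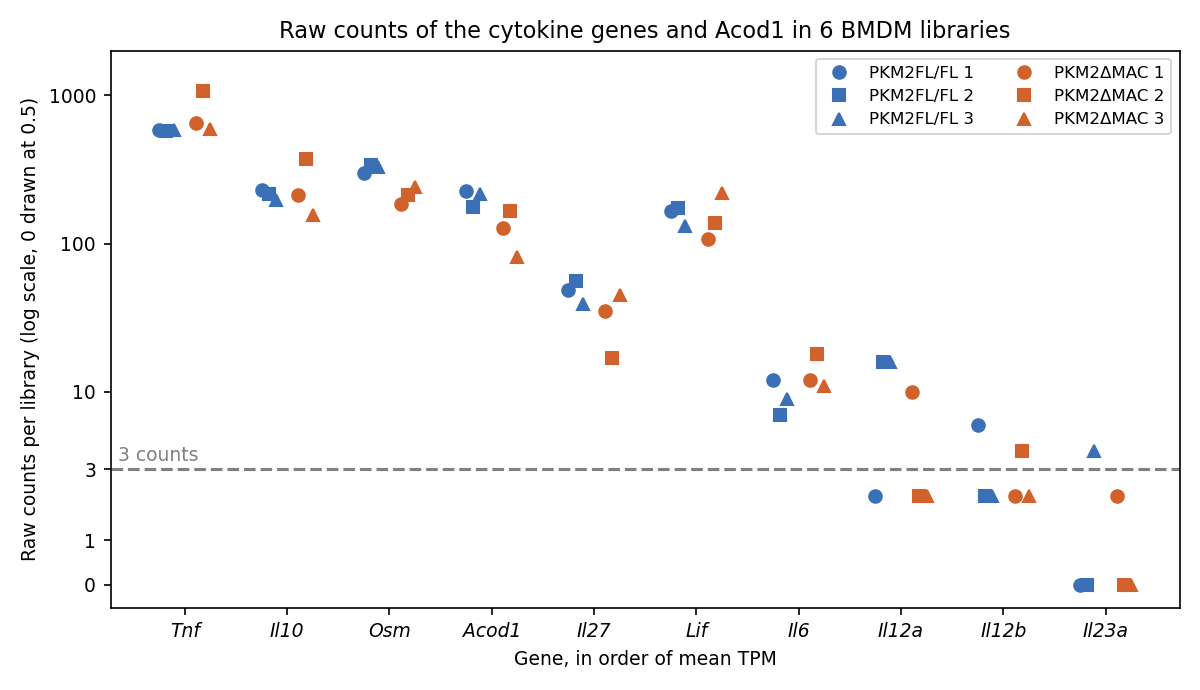
Raw counts (log scale, a count of 0 drawn at 0.5) of the 10 genes in the 3 PKM2FL/FL (blue) and 3 PKM2ΔMAC (orange) libraries, each point being 1 library and each symbol shape a replicate number. Tnf lies between 575 and 1069 counts, whereas Il12a, Il12b and Il23a have libraries below the dashed line at 3 counts.

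Il6, the acute phase cytokine, had 12, 7 and 9 counts in PKM2FL/FL replicates 1 to 3 and 12, 18 and 11 counts in PKM2ΔMAC replicates 1 to 3. All 6 values exceeded 3 counts, and replicate 1 had the same count in both genotypes. Il12b, which encodes the subunit shared by IL-12 and IL-23, had 6, 2 and 2 counts in PKM2FL/FL and 2, 4 and 2 counts in PKM2ΔMAC, so that 4 of 6 libraries were at or under the limit. Il12a, which encodes the IL-12-specific subunit, had 2, 16 and 16 counts in PKM2FL/FL and 10, 2 and 2 counts in PKM2ΔMAC. Each genotype thus held libraries on both sides of the limit. Il23a, which encodes the IL-23-specific subunit, had 0, 0 and 4 counts in PKM2FL/FL and 2, 0 and 0 counts in PKM2ΔMAC. Of the 18 values of Il12a, Il12b and Il23a, 18 were even or 0, and 71.1% of all 32189 deposited values of 1 to 10 counts were even. Whether both ends of a sequenced fragment were counted separately is not stated in the sources used here and was not tested, and if so, 3 counts stand for fewer than 3 fragments.

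Genes that sense LPS had a median level of 44.4 TPM. All 18 of 18 listed genes of LPS sensing had a mean of at least 1 TPM and 17 of at least 10 TPM, including Cd14 with 847 TPM, Tlr4 with between 73.9 and 85.7 TPM and Ly96 with between 26.5 and 32.1 TPM over the 6 libraries. All 20 of 20 NF-κB subunits and early feedback genes were above 1 TPM, such as Atf3, a stress-induced repressor of cytokine genes, with 392 TPM and Nfkbia, the inhibitor IκBα, with 188 TPM. Other effectors that LPS induces varied widely. Il1rn, the IL-1 receptor antagonist, was at 202 TPM and Ccl3, a chemokine, at 179 TPM, whereas Il1b was between 3.24 and 5.90 TPM. Nos2, a standard marker of LPS/IFN-γ-primed macrophages, had 16, 2 and 24 counts in PKM2FL/FL and 26, 13 and 13 counts in PKM2ΔMAC, a mean of 0.242 TPM. Csf2, Csf3 and Ifnb1 of the same list had no row in the tables.

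Among 26 listed IFN-γ-induced genes, 23 had a mean of at least 1 TPM and 17 of at least 10 TPM. Cd74, the MHC class II invariant chain, was at 2547 TPM and Irf1, the first interferon regulatory factor, at 49.5 TPM. Cxcl9, an IFN-γ-induced chemokine, lay between 0.499 and 1.15 TPM, Cxcl10 between 3.90 and 9.41 TPM, and Ido1, the tryptophan-degrading enzyme, had at most 4 counts in any library. Nos2, Il6, Il12b and Cxcl9, textbook products of macrophages given LPS with IFN-γ, were thus each below 1 TPM on average in libraries labelled as primed. The label of the treatment could not be checked against unprimed cells, and the reason for these levels was not tested.

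**Figure D2:**
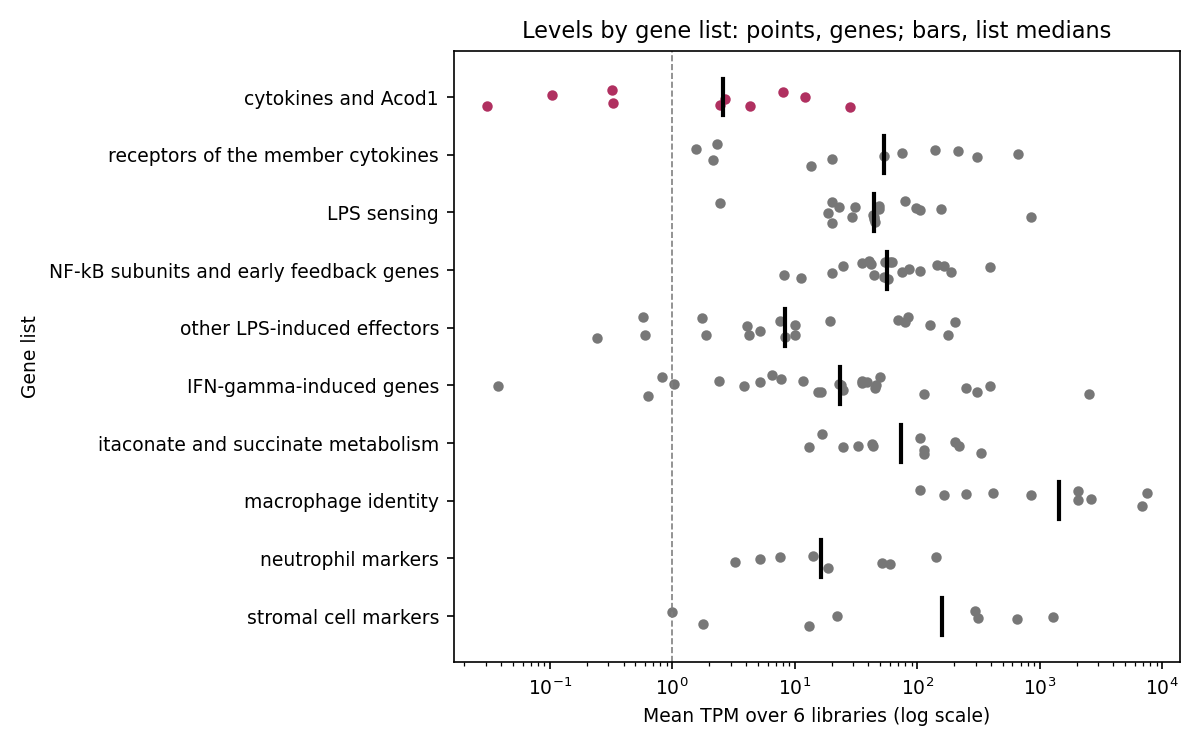
Mean TPM over the 6 libraries (log scale) of each gene of the 10-member group (red) and of 9 other gene lists (grey), with each point a gene, black bars at the list medians and a dashed line at 1 TPM. The median of the cytokines and Acod1 is 2.59 TPM, against 44.4 TPM for LPS sensing and 8.37 TPM for other LPS-induced effectors.

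PKM2ΔMAC libraries were then compared with the floxed control for each member, which addresses whether cytokine transcripts differ between the genotypes. Osm and Acod1 were lower and Tnf was higher in each PKM2ΔMAC library than in each PKM2FL/FL library, but 0 of the 10 members passed the threshold of 0.05 on the adjusted p of edgeR's quasi-likelihood test, as did 0.412% of the 16516 tested genes (0.127% in the lower direction). Counts were sufficient for the test, by edgeR's filter on low counts, for 7 members (Tnf, Il6, Il27, Il10, Lif, Osm and Acod1). At an unadjusted p under 0.05, 2 members (Osm and Acod1, both lower) were selected by edgeR, beside 9.83% of the tested genes in either direction and 4.6% in the lower one. The genotypes did not overlap for 3 members, beside 17.2% of the tested genes. In the higher direction this was 1 member beside 8.92%, and in the lower direction 2 members beside 8.32%. Of the 7 fold changes 3 were above 0 and 4 below, and their median log2 fold change was -0.018, against -0.00021 for all tested genes. DESeq2 called 1 member, Osm, beside 1.83% of the genes it tested. Limma-trend on the TPM values called 0 members, beside 0.281% of genes. Without PKM2ΔMAC replicate 2 edgeR called 1 member, Acod1, beside 1.77% of genes.

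**Figure D3:**
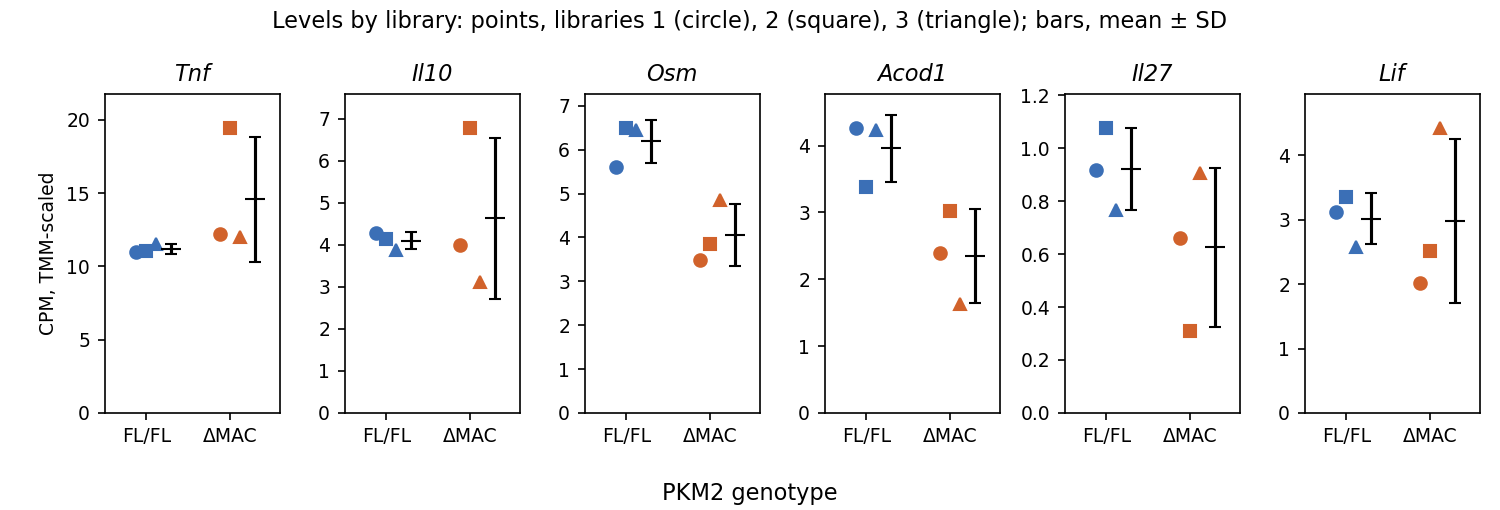
CPM scaled by TMM factors (y axes from 0) of 6 members in PKM2FL/FL (blue) and PKM2ΔMAC (orange) BMDMs, with symbol shapes for replicates 1 to 3 and black bars for mean ± SD (n = 3). Osm and Acod1 are lower in each PKM2ΔMAC library, and PKM2ΔMAC replicate 2 (square) is the highest library for Tnf, at 19.5 CPM, and for Il10, at 6.79 CPM.

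Tnf, on the minus strand of chromosome 17 from 35199381 to 35202007 (GRCm38, GENCODE M21), had 11.0, 11.1 and 11.5 CPM in PKM2FL/FL replicates 1 to 3. In PKM2ΔMAC it had 12.2, 19.5 and 12.0 CPM. All 3 PKM2ΔMAC libraries lay above the narrow PKM2FL/FL range, 2 of them by little and replicate 2 by far. The means were 11.2 ± 0.318 and 14.6 ± 4.24 CPM (SD, n = 3 each), and the log2 fold change was 0.38 (SE 0.19, 95% interval -0.069 to 0.83, edgeR adjusted p = 0.575). A two-sided exact permutation test on 3 against 3 libraries gave p = 0.10, the smallest it can give. Without PKM2ΔMAC replicate 2 the log2 fold change was 0.12. On the deposited TPM values, Tnf took between 41.8% and 43.7% of the summed level of the 10 members in PKM2FL/FL and between 50.5% and 56.6% in PKM2ΔMAC. This share is no separate result. It is built from Tnf itself and from a sum that holds Osm and Acod1, which were lower in each PKM2ΔMAC library.

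The 3 genes whose profile over the 6 libraries was nearest to that of Tnf, among 13075 genes of at least 1 CPM, were Phf19, a Polycomb-associated protein gene, Cip2a, an inhibitor of protein phosphatase 2A, and Gpr183, an oxysterol receptor. Their root mean square distances from Tnf were 0.025, 0.034 and 0.037 on the centred log2 scale. As their selection fixed, all 3 had their highest value in PKM2ΔMAC replicate 2.

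Il10, on chromosome 1 from 131019845 to 131024974, had 4.29, 4.14 and 3.88 CPM in PKM2FL/FL. In PKM2ΔMAC it had 3.99, 6.79 and 3.12 CPM. Replicate 2 was the highest and replicate 3 the lowest of all 6 libraries, so the genotypes overlapped. Its log2 fold change was 0.18 (SE 0.27, 95% interval -0.45 to 0.80, edgeR adjusted p = 0.880), within the spread between replicates, and it turned to -0.20 without PKM2ΔMAC replicate 2.

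Osm lies on chromosome 11 from 4236420 to 4241026. It had 5.62, 6.50 and 6.45 CPM in PKM2FL/FL replicates 1 to 3, against 3.48, 3.86 and 4.85 CPM in PKM2ΔMAC. The highest PKM2ΔMAC library thus stayed below the lowest PKM2FL/FL library. The means were 6.19 ± 0.498 and 4.07 ± 0.707 CPM (SD, n = 3 each), so that PKM2ΔMAC was at 65.7% of PKM2FL/FL. The log2 fold change was -0.61 (SE 0.15, 95% interval -0.95 to -0.26, edgeR adjusted p = 0.223, with an unadjusted p of 0.00335). The exact permutation test, two-sided, gave p = 0.10. DESeq2 put the adjusted p at 0.0260, and over all alternatives, the other tools and each library left out included, the adjusted p ranged from 0.0260 to 0.649 with the fold change always below 0.

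Lif is the next member along chromosome 11, from 4257557 to 4272514, and starts 16530 bases after the end of Osm. It had 3.13, 3.35 and 2.58 CPM in PKM2FL/FL replicates 1 to 3, against 2.02, 2.51 and 4.43 CPM in PKM2ΔMAC. The PKM2ΔMAC libraries included both the lowest and the highest value. Its log2 fold change was -0.018 (SE 0.29, 95% interval -0.68 to 0.64, edgeR adjusted p = 0.991). The difference between the changes of Lif and Osm was not tested.

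Acod1, on chromosome 14 from 103046977 to 103056573, had 4.27, 3.39 and 4.23 CPM in PKM2FL/FL. In PKM2ΔMAC it had 2.39, 3.02 and 1.63 CPM. Every PKM2ΔMAC library was below every PKM2FL/FL library, with the closest pair at replicate 2 of each. The means were 3.96 ± 0.499 and 2.35 ± 0.696 CPM (SD, n = 3 each), so that PKM2ΔMAC was at 59.3% of PKM2FL/FL, the lowest share among the 7 tested members. The log2 fold change was -0.75 (SE 0.23, 95% interval -1.27 to -0.23, edgeR adjusted p = 0.334, with an unadjusted p of 0.0102). The exact permutation test, two-sided, gave p = 0.10. Without PKM2ΔMAC replicate 2 the log2 fold change was -0.97, with an adjusted p of 0.0424 from edgeR's quasi-likelihood test. Over all alternatives the adjusted p of Acod1 ranged from 0.0424 to 0.750, with the fold change always below 0.

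The list of itaconate and succinate metabolism held 12 genes, enzymes as well as the regulators Keap1 and Nfe2l2, of which 0 were called by edgeR, DESeq2 or limma-trend, near the background of 0.412% of genes in edgeR. At an unadjusted p under 0.05 edgeR selected 0, beside 9.83% of all tested genes. Their median log2 fold change was 0.0040. Sdha, the catalytic subunit of succinate dehydrogenase, was at 194.5 ± 0.352 TPM in PKM2FL/FL and 211 ± 1.31 TPM in PKM2ΔMAC (SD, n = 3 each). The median difference in TPM between PKM2ΔMAC and PKM2FL/FL libraries was 0.069 on the log2 scale over the tested genes, against -0.0026 for CPM scaled by TMM factors, on which the log2 fold change of Sdha was 0.044.

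Since Tnf was higher and Osm and Acod1 lower, their ratios within a library, which do not depend on depth or scaling between libraries, were taken after these values had been seen. Since no library of one genotype overlapped the other for these genes, the separation of the first 2 ratios below was already fixed, and the ratios describe its size only. On the TPM scale the ratio of Tnf to Osm was between 2.36 and 2.70 in PKM2FL/FL and between 3.43 and 6.99 in PKM2ΔMAC. The ratio of Tnf to Acod1 was between 4.11 and 5.23 in PKM2FL/FL and between 8.17 and 11.8 in PKM2ΔMAC. For Tnf to Il10 the ranges were 2.04 to 2.38 and 2.29 to 3.08, which overlapped.

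Of the 4 members of the IL-12 family, Il27 alone had enough counts for the test. IL-27 is made of the Il27 product and that of Ebi3. Il27 lies on the minus strand of chromosome 7 from 126589010 to 126594941 and shares 103 bases with Apobr on the plus strand, which had up to 5044 counts. Reads in the shared part could have been assigned to either gene or to neither. Il27 had 0.917, 1.08 and 0.767 CPM in PKM2FL/FL replicates 1 to 3, against 0.659, 0.309 and 0.906 CPM in PKM2ΔMAC. PKM2ΔMAC replicate 2, the highest library for Tnf and Il10, was the lowest for Il27, and the genotypes overlapped. The log2 fold change was -0.56 (SE 0.39, 95% interval -1.45 to 0.33, edgeR adjusted p = 0.698). Leaving out PKM2ΔMAC replicate 2 gave -0.23, and leaving out replicate 3 of that genotype gave -0.93. Its partner Ebi3 was far more abundant, at 76.7 ± 5.07 TPM in PKM2FL/FL and 82.7 ± 20.4 TPM in PKM2ΔMAC (SD, n = 3 each), 29.6 times the mean of Il27 over the 6 libraries. Ebi3 overlaps an antisense gene, Gm16712, which had at most 199 counts. The log2 fold change of Ebi3 was 0.030 (SE 0.14, edgeR adjusted p = 0.970).

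Il12a, Il12b and Il23a did not pass edgeR's filter on low counts. Il12a averaged 0.22 ± 0.158 CPM in PKM2FL/FL against 0.0883 ± 0.0866 CPM in PKM2ΔMAC, and Il12b 0.0634 ± 0.0424 against 0.0502 ± 0.0196 CPM (SD, n = 3 each). Il23a averaged 0.0262 ± 0.0454 CPM in PKM2FL/FL against 0.0126 ± 0.0218 CPM in PKM2ΔMAC. The means of Il23a in each genotype, and that of Il12b in PKM2ΔMAC, were under the detection limit. Two-sided exact permutation tests gave p = 0.30 for Il12a, 0.80 for Il12b and 1 for Il23a, where 3 against 3 libraries cannot go below 0.10.

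Il6, on chromosome 5 from 30013114 to 30019981, was at 0.225, 0.135 and 0.177 CPM in PKM2FL/FL, against 0.226, 0.328 and 0.222 CPM in PKM2ΔMAC. PKM2ΔMAC replicate 3 lay just below PKM2FL/FL replicate 1, so the genotypes overlapped by a narrow margin. On the TPM values they did not overlap, with at most 0.321 TPM in PKM2FL/FL and at least 0.329 TPM in PKM2ΔMAC. The log2 fold change was 0.53 (SE 0.45, 95% interval -0.49 to 1.54, edgeR adjusted p = 0.767), an interval that holds both a fall and a rise of Il6.

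**Figure D4:**
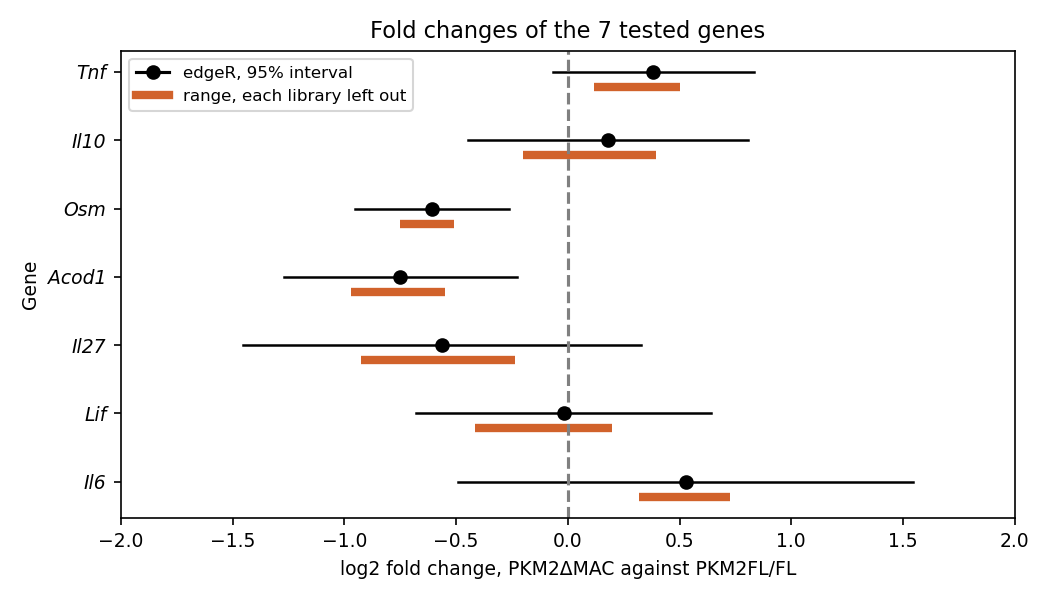
Log2 fold changes of the 7 tested members in PKM2ΔMAC against PKM2FL/FL BMDMs (points) with 95% intervals (black lines) from edgeR and the range of the estimate when each library was left out in turn (orange bars). The intervals of Osm, -0.95 to -0.26, and of Acod1, -1.27 to -0.23, lie below 0 before adjustment over all genes, and the bars of Il10 and Lif cross 0.

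Receptors of these cytokines had a median level of 53.3 TPM, against 2.59 TPM for the 10 members. Of the 11 listed receptor genes in the tables, 11 had a mean of at least 1 TPM and 8 of at least 10 TPM. Between the genotypes 0 were called by edgeR, DESeq2 or limma-trend, and 3 (Il10ra, Il10rb and Il12rb1) had an unadjusted p under 0.05 in edgeR, beside 0.412% and 9.83% of all tested genes. The TNF receptors Tnfrsf1b and Tnfrsf1a were at 670 and 307 TPM, and the IL-10 receptor chains Il10ra and Il10rb at 213 and 139 TPM. Il6st, the signal-transducing chain shared by the IL-6 family, was at 75.1 TPM and Il6ra at 53.3 TPM, with Lifr at 20.0 TPM and Osmr at 13.6 TPM. Il12rb1, which binds the subunit shared by IL-12 and IL-23, was at 1.17 ± 0.130 TPM in PKM2FL/FL and 1.93 ± 0.272 TPM in PKM2ΔMAC (SD, n = 3 each) and did not overlap, with a log2 fold change of 0.65 (SE 0.20, edgeR adjusted p = 0.340). Il10ra and Il10rb went lower, with log2 fold changes of -0.13 and -0.12, and the genotypes overlapped for Il10ra but not for Il10rb.

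Genes upstream of the cytokines were compared in the same way. Of 18 genes of LPS sensing, 20 NF-κB subunits and feedback genes and 12 transcription regulators of cytokines, 0 passed the threshold in edgeR, and the median log2 fold changes of these lists were -0.010, 0.012 and -0.018. At an unadjusted p under 0.05 edgeR selected 1, 2 and 1 of them, and DESeq2 called 0, 1 and 0, the 1 being Nfkbiz. Over all tested genes edgeR selected 9.83% at that unadjusted p, and DESeq2 called 1.83%. Nfkbiz, which encodes IκBζ, a nuclear cofactor of NF-κB needed for Il6 and Il12b transcription, had 45.8 ± 3.94 TPM in PKM2FL/FL and 69.0 ± 9.41 TPM in PKM2ΔMAC (SD, n = 3 each) without overlap, a log2 fold change of 0.52 (SE 0.09, edgeR adjusted p = 0.111). Among 19 tested genes of other LPS-induced effectors 13 fold changes were above 0 and 6 below, with a median of 0.20, 0 calls and 3 at an unadjusted p under 0.05 in edgeR, and 1 call (Lcn2) in DESeq2. Among 25 tested IFN-γ-induced genes 11 were above 0 and 14 below, with a median of -0.029, 0 calls and 1 at an unadjusted p under 0.05 in edgeR, and 0 calls in DESeq2. Without PKM2ΔMAC replicate 2 edgeR called 1 gene in each of 3 of these lists, namely Tnfaip3 among NF-κB feedback genes, Ccl3 among effectors and Ciita among IFN-γ-induced genes, beside 1.77% of all genes in that fit. For Il1b, whose genotypes overlapped, the log2 fold change was -0.0047.

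Markers of other cells were summed per library, and with all 6 libraries the sums of the neutrophil list alone did not overlap between the genotypes. The summed level of 8 neutrophil markers was between 68.6 and 168 TPM in PKM2FL/FL and between 323 and 659 TPM in PKM2ΔMAC, with 8 of 8 fold changes above 0, a median of 1.83, 5 without overlap and 0 called by edgeR, although 5 had an unadjusted p under 0.05 and the 5 (among them S100a8 and S100a9) were called by DESeq2. Over all tested genes 17.2% did not overlap, 9.83% had such an unadjusted p and 1.83% were called by DESeq2. Limma-trend, and edgeR without PKM2ΔMAC replicate 2, called 0 of the neutrophil markers, beside 0.281% and 1.77% of genes. None of these markers was at 0 in all libraries. PKM2ΔMAC replicate 2, the library with the most Tnf, had the lowest neutrophil sum of the PKM2ΔMAC libraries. Stromal markers were abundant in both genotypes, with Col1a1 at 1296 TPM and summed levels of 2299 to 2574 TPM in PKM2FL/FL and 2418 to 2949 TPM in PKM2ΔMAC. B cell markers summed to between 132 and 150 TPM in PKM2FL/FL and between 131 and 216 TPM in PKM2ΔMAC, almost all of it Ighm. PKM2ΔMAC replicates 1 and 3 lay above all PKM2FL/FL libraries for the stromal sum, at 2937 and 2949 TPM, and for the B cell sum, at 190.0 and 216 TPM, and without PKM2ΔMAC replicate 2 edgeR called Col1a1 and Ighm. T and NK cell markers summed to at most 2.39 TPM, dendritic cell markers to at most 5.48 TPM, erythroid markers to at most 13.4 TPM, and mast cell and basophil markers to at most 21.8 TPM in any library. Among the 10 macrophage identity genes 3 fold changes were above 0 and 7 below, with a median log2 fold change of -0.025. Of these genes edgeR called 1, Itgam (CD11b), which rose by a log2 fold change of 0.43 (SE 0.04, edgeR adjusted p = 0.00273). DESeq2, and edgeR without PKM2ΔMAC replicate 2, called 2, Itgam and Adgre1, the latter with a log2 fold change of 0.26 (SE 0.07, edgeR adjusted p = 0.236 over all libraries) and no overlap. The shares of all genes called were 0.412% in edgeR, 1.83% in DESeq2 and 1.77% without that library. The summed level of this list, and that of the erythroid markers, overlapped between the genotypes through PKM2ΔMAC replicate 2 and was higher in the other PKM2ΔMAC libraries than in all PKM2FL/FL libraries. The part of these cells in the levels of Tnf, Osm and Acod1 was not tested.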

How the data were processed

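RNA of LPS/IFN-γ-labelled BMDMs from 3 PKM2FL/FL and 3 PKM2ΔMAC mice was sequenced by the authors. They deposited raw counts per gene symbol, without normalization, and TPM values of the same 6 libraries. The submitters' processing notes name Trim Galore 0.6.10, HISAT2 2.2.1, SAMtools 1.19.2, Subread 2.0.6 and the mm10 build. The annotation and the strandedness of counting are not given in the sources used here. Columns named PKO and LoxP were matched to libraries by genotype and mouse number, and 0 were left unmatched.

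Counts were compared with edgeR 4.0.16 (R 4.3.3, robust quasi-likelihood test, TMM factors, genotype as the only term) over 16516 genes kept by filterByExpr, with Benjamini-Hochberg adjustment over all of them and a threshold of 0.05. The SE of a log2 fold change was taken from its size and the root of its F statistic. Permutation tests used log2(CPM + 0.1). Alternatives were DESeq2 1.42.0, RLE factors, other filters, a replicate block, down-sampling, limma-trend (limma 3.58.1) on log2 TPM and each library left out. The fits were tested on simulated data.

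The members and gene lists were chosen with earlier results of these data known. Genes of the lists were named if called, if among the highest of their list, or if set down beforehand as receptors, LPS sensors or markers of priming. Nfkbiz, Il12rb1, Irf1, Ido1, Lcn2, Tnfaip3, Ciita and Csf1r were chosen after their values were seen, as were the within-library ratios. No libraries were identical within sampling noise. Positions are from GENCODE M21 on GRCm38. Intervals cover the model's error, and the detection limit covers counting error only.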

Additional observations from a re-analysis of the deposited data

How the results depend on the processing

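The number of genes called, 68 with edgeR, was 302 with DESeq2, 120 with no filter, 41 and 34 with limma-trend on log2(TPM + 1) and log2(TPM + 0.1), 36 with limma-trend and no filter, and between 22 and 299 when each library was left out, with 299 without PKM2ΔMAC replicate 2 and 26, 27 and 22 without PKM2FL/FL replicates 1, 2 and 3. Members called numbered 0 except for 1 (Osm, log2 fold change -0.61) with DESeq2 and, when each library was left out, between 0 and 1 (Acod1 without PKM2ΔMAC replicate 2). Members without overlap numbered 3, and between 3 and 6 of the 10 when a library was left out, beside between 25.0% and 31.3% of the tested genes (17.2% with all libraries). Fold changes of Tnf, Il6, Il27, Osm and Acod1 kept their sign under every alternative run. With a library left out, Tnf ranged from 0.12 to 0.50, Il6 from 0.32 to 0.72, Il27 from -0.93 to -0.23, Osm from -0.75 to -0.51, Acod1 from -0.97 to -0.55, Il10 from -0.20 to 0.39 and Lif from -0.41 to 0.20. Lif also turned to 0.0019 on log2(TPM + 1) with and without the filter. Il6 was at 0.15 on log2(TPM + 1) with no filter, against 0.53 in edgeR. The causes were not tested. With the replicate number as a block, 82 genes and 0 members were called, and no call of a member changed. Same-numbered libraries did not all deviate together (correlations 0.080, 0.14 and 0.019), although 5 of 6 libraries correlated best with their own number and PKM2ΔMAC replicate 3 did not. Whether they share more than a number was not tested. Counts of at most 18 limit Il6, Il12a, Il12b and Il23a.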
